A study of Mus musculus with 6 samples.

Results

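The transcripts described here encode the proteins of the cytosolic ribosome. They were taken from a gene-level table of motor neurons (MNs) made from mouse embryonic stem cells (mESCs), by symbol: Rpl or Rps followed by a number and at most 1 letter a, x or l, and also Rplp0 to Rplp2 and Rpsa. The table held 80 such symbols among 34433, of which 48 belong to the large (60S) and 32 to the small (40S) subunit. For a symbol with several rows, the row with the highest FPKM (fragments per kilobase of transcript, scaled to the mapped fragments of the library, a level per transcript length) was used.

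The study asked how loss of the survival motor neuron protein SMN, the cause of spinal muscular atrophy (SMA), alters MN transcripts. It compared the Hb9 control line (labelled wildtype, SMN2+/+;mSmn+/+ in the study's methods) with the A2 SMA line (SMN2+/+;mSmn-/-). Both lines have the FVB/N background and carry an eGFP reporter driven by the promoter of Hb9 (Mnx1), and both were treated as embryoid bodies with 1 µM retinoic acid and 1 µM Smoothened agonist for 5 days. GFP-positive cells were sorted, and 3 RNA samples of each genotype were sequenced. Each genotype was 1 mESC line, so genotype and line cannot be told apart, and the labels do not say whether the 3 samples were separate differentiations. The table gives 1 pooled FPKM value per genotype and the reads behind a value are unknown, so every difference below lacks a replicate check, and no SD, interval or test is given.

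A ribosome is built from ribosomal RNA and one copy of nearly every ribosomal protein, the stalk proteins P1 and P2 excepted. The small subunit reads the mRNA and the large subunit joins amino acids and feeds the chain into an exit tunnel. Most ribosomal protein mRNAs begin with a 5′ terminal oligopyrimidine (TOP) tract, a C followed by a run of pyrimidines, through which the mTOR pathway controls their translation. Their genes have left many processed pseudogenes, intronless copies that may be nearly identical to the mRNA, and several hold snoRNA genes in their introns.

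The identity of the cells was checked first. Smn1 (NCBI m37, chr13:100894807-100907645) had a level of 137 FPKM in Hb9 control and 5.26 FPKM in A2 SMA MNs, which is 25.9-fold lower. Mnx1, whose promoter drives the sorted reporter, had similar levels of 41.2 and 44.2 FPKM, whereas Lhx3 (27.6 and 0.348 FPKM) and Chat (15.5 and 0.344 FPKM), which define MNs, were near 0 in the libraries labelled A2 SMA. Of 6 MN markers that passed the filter described below, 5 were at least 1.5-fold lower in A2 SMA MNs (summed level 216 and 52.5 FPKM), as were 6 of 6 pan-neuronal markers (1186 and 129 FPKM), 4 of 5 neural progenitor markers (832 and 42.1 FPKM) and 5 of 6 fibroblast markers (62.6 and 30.2 FPKM), where 35.4% of all rows with a symbol were that much lower and 12.7% that much higher. All 8 pluripotent cell markers were at least 1.5-fold higher, with a summed level of 278 FPKM in Hb9 control and 1821 FPKM in A2 SMA MNs. They were led by Pou5f1 (98.3 and 775 FPKM) and Utf1 (59.8 and 357 FPKM). The authors' status column marks the row of Utf1 FAIL, a mark explained below. Of 6 markers of cycling cells, 4 were higher, with a median log2 ratio of 0.33. These marker differences accompany every ratio below, and their part in those ratios was not tested. In such bulk RNA, fewer cells of a type and less RNA per cell cannot be told apart.

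The start of transcription is shown for 6 members, because the TOP tract lies there and because these genes include the lowest ratio (Rpl7a), the highest ratio (Rpl39l), a stalk protein, and members of high and middle level. The sequences are RefSeq's on build GRCm38.p6, 5′ to 3′ on the strand of the gene, from 30 bases before to 20 bases from the start onward, with each CTTTC that lies wholly within 5 bases before to 15 bases after the start in capitals. The CTTTC of Rpl39l begins 1 base outside these limits and stays in lower case.
Rpl7a (chr2:26910777-26910826, + strand): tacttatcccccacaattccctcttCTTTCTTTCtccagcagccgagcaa
Rpl39l (chr16:10170198-10170247, + strand): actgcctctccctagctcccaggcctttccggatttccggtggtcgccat
Rplp2 (chr7:141447621-141447670, + strand): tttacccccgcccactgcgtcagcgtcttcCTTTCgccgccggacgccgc
Rpl38 (chr11:114668550-114668599, + strand): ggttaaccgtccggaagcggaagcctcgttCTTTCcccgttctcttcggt
Rps9 (chr7:3704011-3704060, + strand): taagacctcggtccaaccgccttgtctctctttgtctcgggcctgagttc
Rpl28 (chr7:4792935-4792984, + strand): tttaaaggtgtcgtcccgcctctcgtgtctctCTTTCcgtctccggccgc

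RefSeq windows from 250 bases before to 50 bases after the start were found for 60 of the 80 members. Within 5 bases before to 15 bases after the start, CTTTC stood on the strand of the gene in 14 of 60 members (23.3%), against 2.79% of 27025 symbols with a window. On the opposite strand it stood in 1.67% of members and 2.72% of all symbols. CCGGAAG, a core of ETS family sites, stood on either strand of the whole window in 43.3% of members and 9.93% of all symbols. GGGCGG stood in 60% and 38.2%, TATAA in 26.7% and 28%, and the E-box CACGTG in 10% and 8.09%, again on either strand. None of these motifs contains another. The 14 members with CTTTC near the start had a median log2 ratio of 0.10, with 8 higher in A2 SMA MNs, and the 46 without it had a median of 0.22, with 32 higher. CTTTC is only 1 of the forms that a TOP tract can take, and the 46 may include members with another. The 2 groups are thus not members with and without a TOP tract.

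Levels of the members spanned a 1749-fold range. The highest was Rpl8, a protein near the peptidyl transferase centre (2047 FPKM in Hb9 control and 2293 in A2 SMA MNs). Rps3, at the mRNA entry, had 915 and 1029 FPKM. Rps9 had 451 and 399.7 FPKM, in a row that the authors' status column marks FAIL, meaning that Cuffdiff could not complete its calculation there. In the large subunit the next were Rpl4, which reaches into the exit tunnel (470 and 546 FPKM), and Rpl22 (385 and 448 FPKM). The 5 highest members held 68.5% of the summed member FPKM in Hb9 control and 68.7% in A2 SMA MNs.

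At the other end stood Rps25 with 1.29 and 1.19 FPKM, Rps27 with 1.82 and 1.52 FPKM and Rps7 with 4.05 and 2.80 FPKM in the small subunit. In the large subunit the lowest were Rpl3l (1.12 and 2.33 FPKM), Rpl35 (2.71 and 4.36 FPKM) and Rpl39 (4.42 and 4.13 FPKM). Proteins that are present in the ribosome in equal number thus had rows far apart in level. The median member level was 15.8 FPKM in Hb9 control and 16.0 FPKM in A2 SMA MNs, beside 17.6 and 12.9 FPKM over all rows with a symbol. The order of the members was nearly the same in both genotypes (Spearman's rho 0.95 over 80 genes, which share their libraries and transcript models).

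**Figure D1:**
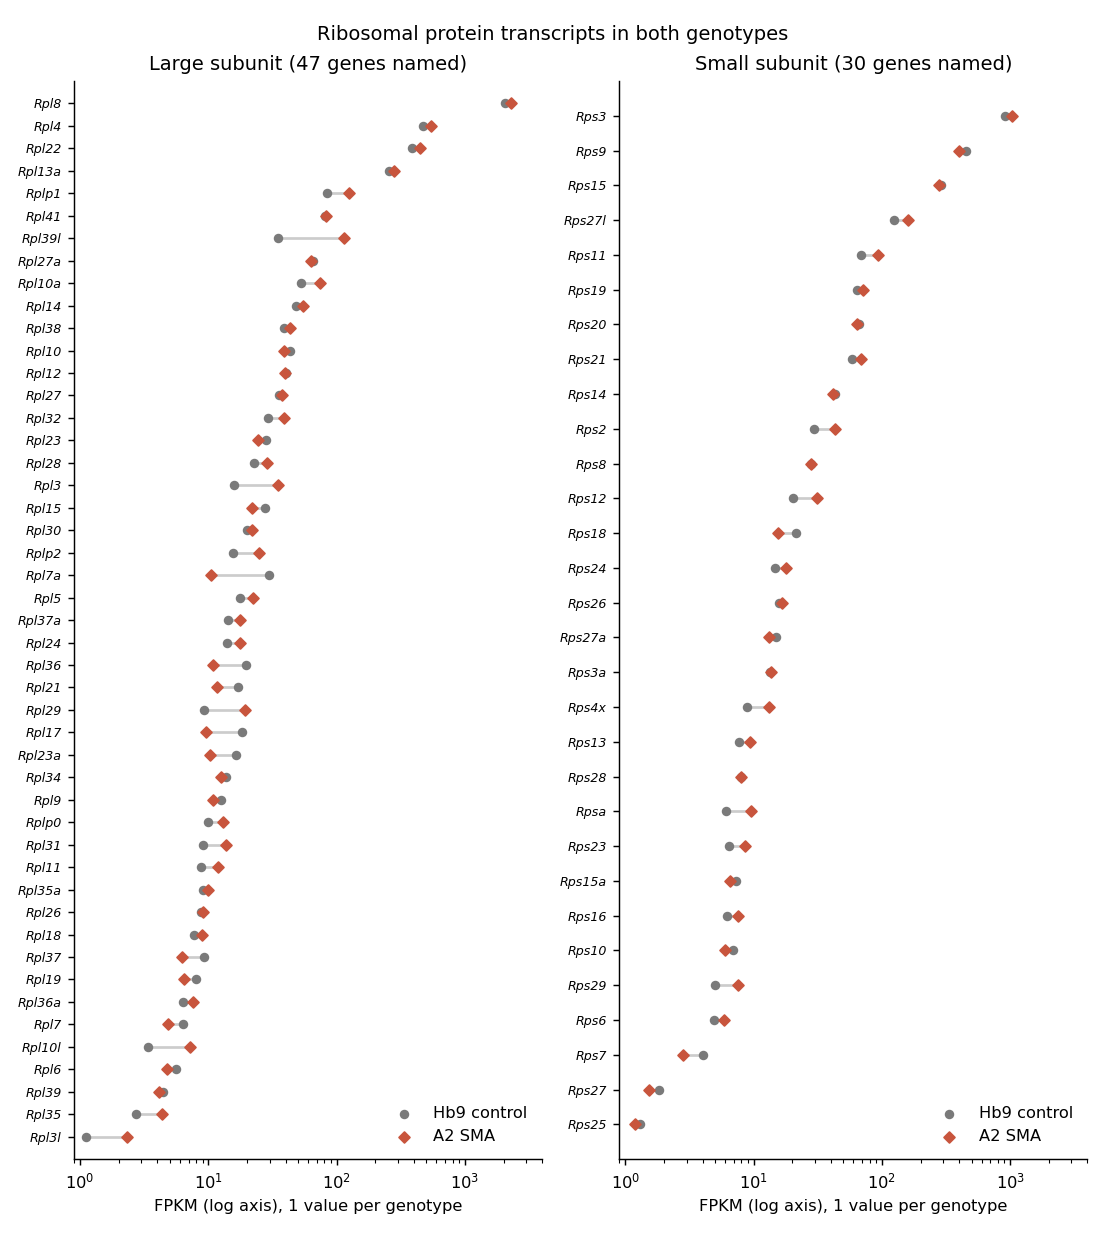
FPKM of the large subunit (left) and small subunit (right) members named on the axes, on a log scale, ordered by mean level, with 1 point per genotype (grey circle, Hb9 control; red diamond, A2 SMA) and no error because the table holds 1 pooled value each. Rpl8 lies highest and Rps25 near 1 FPKM, and Rpl39l, Rpl3 and Rpl7a have the widest gaps among members above 10 FPKM.

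The next comparison asked whether the members as a group differed between genotypes. The log2 ratio of A2 SMA over Hb9 control FPKM was formed without a pseudocount for rows above 0 in each genotype that reached 1 FPKM or more in one of them, which all 80 members and 14926 rows with a symbol passed. Of the 80 members, 49 (61.2%) had a higher level in A2 SMA MNs, against 34.1% of all rows. Their median log2 ratio was 0.14 (quartiles -0.15 and 0.37), and that of all rows was -0.29 (quartiles -0.89 and 0.19). The summed level was 8159 FPKM in Hb9 control and 9183 FPKM in A2 SMA MNs, a ratio of 1.13.

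At least 1.5-fold higher in A2 SMA MNs were 11 members (13.8%), against 12.7% of all rows, a share near the background. At least 1.5-fold lower were 4 members (5.00%), against 35.4% of all rows. Because the median row was not at 0, ratios were also read relative to it. Then 68 of 80 members lay above the median row, and the median member lay 0.43 above it. At least 1.5-fold above the median row were 27 members, against 20.8% of all rows, and at least 1.5-fold below it were 2 members, against 25.5% of all rows. The sign for a member whose log2 ratio lies between -0.29 and 0 depends on this scaling.

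**Figure D2:**
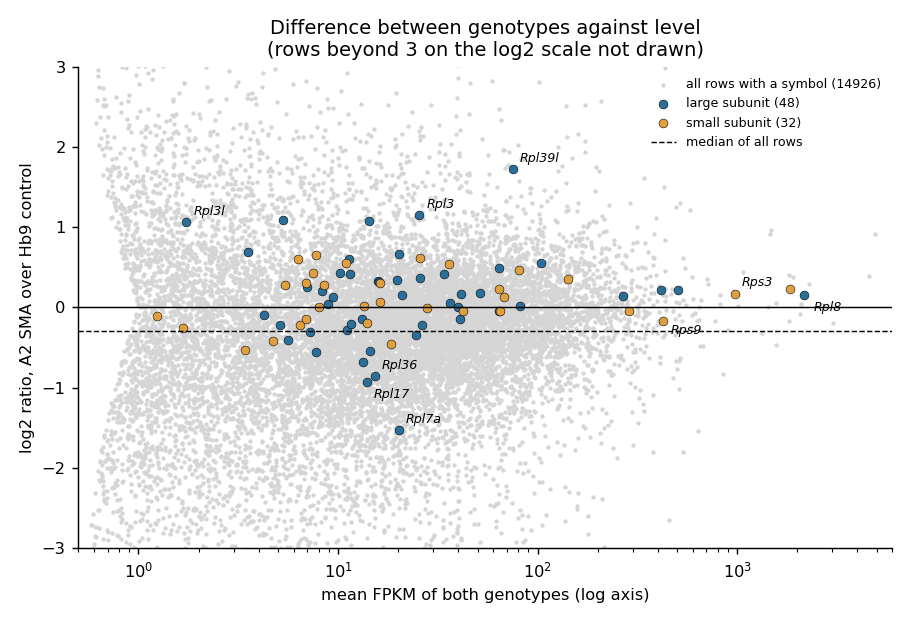
The log2 ratio of A2 SMA over Hb9 control (y) against mean FPKM on a log axis (x) for 14926 rows with a symbol (grey) and for the large (blue) and small (orange) subunit members. The dashed line is the median of all rows (-0.29), and 68 of 80 members lie above it, with Rpl39l highest and Rpl7a lowest.

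The spread of the ratios was narrower at high level. The 10 members with a mean of at least 100 FPKM had ratios from -0.17 to 0.55 and a median of 0.19, with 8 higher in A2 SMA MNs and none past 1.5-fold. All rows of that level had a median of -0.07, with 44.2% higher, 11% at least 1.5-fold higher and 18.6% at least 1.5-fold lower. The 45 members between 10 and 100 FPKM ranged from -1.53 to 1.72 with a median of 0.13 (all rows of that level, -0.27), and the 25 members under 10 FPKM from -0.56 to 1.09 with a median of 0.04 (all rows, -0.43). As a share of the summed FPKM of all rows with a symbol, the members held 1.33% in Hb9 control and 1.70% in A2 SMA MNs. Over all rows of the table, in which short loci without a symbol reach very high FPKM, the shares were 0.179% and 0.194%.

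The subunits were then compared. The 48 large subunit members had a median log2 ratio of 0.16 (quartiles -0.22 and 0.41), and 30 were higher in A2 SMA MNs. The 32 small subunit members had a median of 0.10 (quartiles -0.12 and 0.31), and 19 were higher. The medians differed by 0.05, far less than the quartile range within either subunit. All 4 members at least 1.5-fold lower and 8 of the 11 at least 1.5-fold higher belonged to the large subunit, which holds 48 of the 80 members. Its shares were 8.33% lower and 16.7% higher, against 35.4% and 12.7% of all rows. The small subunit ranged from -0.53 to 0.65, and the large from -1.53 to 1.72. The large subunit includes the paralogues Rpl39l, Rpl10l and Rpl3l, and the small subunit Rps27l, which are described below. Without these, 5 of 45 large (11.1%) and 3 of 31 small subunit members (9.68%) were at least 1.5-fold higher, against 12.7% of all rows. The highest large subunit ratio was then 1.15.

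Large subunit members at either extreme were as follows. Rpl7a had the lowest ratio, with 29.9 FPKM in Hb9 control and 10.4 FPKM in A2 SMA MNs, a 2.89-fold lower level. Rpl17, at the rim of the exit tunnel, had 18.3 and 9.56 FPKM (log2 ratio -0.93). Rpl36 had 19.8 and 10.9 FPKM (-0.86), and Rpl23a, at the tunnel exit where nascent chain factors dock, had 16.5 and 10.3 FPKM (-0.68). Of these 4, Rpl7a, Rpl17 and Rpl23a share their rows with snoRNA symbols, and each of those 3 has more than 20 pseudogenes of the kind described below. Of the 11 members at least 1.5-fold higher, 4 share their row (Rpl3, Rplp2, Rps12 and Rpsa) and 4 have more than 20 pseudogenes (Rpl29, Rpl31, Rps12 and Rpsa). Over all 80 members these counts were 27 and 11.

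Among the higher members, Rpl3, a core protein near the peptidyl transferase centre, had 15.8 and 35.2 FPKM, 2.22-fold higher. Rpl29 had 9.18 and 19.4 FPKM (log2 ratio 1.08). Rpl35 had 2.71 and 4.36 FPKM (0.69), and Rpl31 had 9.06 and 13.7 FPKM (0.60) in a row with status FAIL. Both lie at the exit tunnel rim, so that the 8 exit tunnel proteins (with Rpl4, Rpl17, Rpl19, Rpl23a, Rpl26 and Rpl39) held members past 1.5-fold in both directions. At least 1.5-fold higher were 2 of the 8 and at least 1.5-fold lower 2 (25% each), against 12.7% and 35.4% of all rows. In all 4 were higher, against 34.1% of all rows, and 4 lower. Their median was -0.03, which lies above the median row.

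The stalk proteins, which recruit the elongation factors, were all higher in A2 SMA MNs. Rplp0, the base of the stalk, had 9.87 and 13.1 FPKM (log2 ratio 0.41), Rplp1 had 84.8 and 124 FPKM (0.55), and Rplp2 had 15.6 and 24.6 FPKM (0.66), the only one of the 3 past 1.5-fold. The proteins that bind 5S rRNA and, when free, restrain Mdm2 were also higher, with 17.5 and 22.2 FPKM for Rpl5 (0.34) and 8.69 and 11.8 FPKM for Rpl11 (0.43). Neither passed 1.5-fold.

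In the small subunit, 3 members passed 1.5-fold, all higher in A2 SMA MNs (9.38%, against 12.7% of all rows), and none was at least 1.5-fold lower, against 35.4% of all rows. Rpsa, also known as the laminin receptor, had 6.06 and 9.52 FPKM (log2 ratio 0.65), Rps12 had 20.2 and 31.1 FPKM (0.62), and Rps29 had 5.02 and 7.61 FPKM (0.60). The lowest ratios included those of Rps7 (-0.53) and Rps18, with 21.3 and 15.5 FPKM (-0.46). Around the mRNA channel, Rps2 had 29.4 and 42.8 FPKM (0.54), Rps23, a protein of the decoding centre, had 6.41 and 8.63 FPKM (0.43), Rps3 had a ratio of 0.17 and Rps15 one of -0.05 (291 and 281 FPKM). Rps27a, made as a fusion with ubiquitin, had 15 and 13.1 FPKM (-0.20). A list of 16 members whose human orthologs are mutated in Diamond-Blackfan anaemia, which does not hold every such gene, had a median of 0.07, with 11 higher, 2 at least 1.5-fold higher (Rpl31 and Rps29), a share near the 12.7% of all rows, and none at least 1.5-fold lower, against 35.4% of all rows.

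The paralogues that the symbol rule admits were set beside their core partners. Rpl39l, known from male germ cells, had the highest ratio of all members, with 35.0 FPKM in Hb9 control and 115 FPKM in A2 SMA MNs, 3.30-fold higher, whereas X-linked Rpl39 had 4.42 and 4.13 FPKM. Rpl10l, a retrogene known from testis, had 3.41 and 7.25 FPKM (log2 ratio 1.09) beside 42.9 and 38.7 FPKM for X-linked Rpl10 (-0.15). Rpl3l, known from striated muscle, had 1.12 and 2.33 FPKM (1.06), a low level near the filter, beside the higher Rpl3. Rps27l, a p53 target, had 125 and 159 FPKM (0.35), a level far above that of the row of Rps27. In the measure of read sharing described below, the core partner shared more of its mRNA with other genes in all 4 pairs. The shares were 99.3% for Rps27 and 30.7% for Rps27l, and 26.5% for Rpl39 and 5.39% for Rpl39l. They were 92.5% for Rpl10 and 55% for Rpl10l, and 94% for Rpl3 and none for Rpl3l. The part of read sharing in the level differences within these pairs was not tested. All 4 paralogues were higher in A2 SMA MNs, 3 of them at least 1.5-fold, where 34.1% of all rows were higher and 12.7% at least 1.5-fold higher. Of those 3, Rpl10l and Rpl3l had mean levels under 10 FPKM. Among paralogues outside the rule, Rpl22l1 was lower (-0.67), and Rpl36al (0.09) and Rpl7l1 (0.65) were higher. Without the 4 paralogues within the rule, the other 76 members had a median log2 ratio of 0.13. The X-linked members Rpl10, Rpl36a (6.36 and 7.57 FPKM), Rpl39 and Rps4x (8.94 and 13.1 FPKM) had ratios from -0.15 to 0.55, within the range of the 76 autosomal members.

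Of the 80 members, 27 had a row shared with other symbols, in 25 cases with a snoRNA, and no row held more than 1 member. The shared rows had a median log2 ratio of 0.14 and the 53 rows with 1 symbol one of 0.16. Within the large subunit the 17 shared rows had a median of -0.04, with 7 higher, and the 31 unshared rows 0.21, with 23 higher. Within the small subunit the order was the opposite, with 0.25 over 10 shared rows, of which 8 were higher, and -0.02 over 22 unshared rows, of which 11 were higher. In a shared row the reads of the host mRNA and of the other gene cannot be told apart. Rpl28 had 2 rows, the second with 1.59 and 2.65 FPKM beside 22.5 and 28.8 FPKM.

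How much of each mRNA can be told from other transcripts by a 50-base read was measured on GENCODE M21. Every 50-base stretch of 1 transcript per member was aligned to all transcripts with up to 2 mismatches, and a pseudogene was counted when it matched at least 10% of a member's stretches. Of the 80 members, 74 had at least 1 such pseudogene, with a median of 9 and a maximum of 109 for Rpl7a. The median member shared 72.2% of its stretches with another gene, from none in Rpl3l to all in Rps10. Other low shares were 5.39% for Rpl39l, 8.73% for Rpl8, 10.3% for Rps20 and 16.6% for Rps3, and Rpl8 and Rps3 were also among the members of highest level.

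Level and number of pseudogenes moved in opposite directions, with Spearman's rho of -0.30 over 80 genes, which share their libraries and alignment. Between level and the percentage of stretches shared, rho was weaker, at -0.18. The 6 members without such a pseudogene had a median level of 73.3 FPKM in Hb9 control and 98.7 FPKM in A2 SMA MNs, the 8 with 1 or 2 had 38.3 and 39.7 FPKM, and the 36 with 3 to 10 had 13.7 and 15.1 FPKM. The 19 with 11 to 20 had 15 and 12.5 FPKM, and the 11 with more had 17.1 and 11.7 FPKM. These classes were chosen after the values were seen. The class without pseudogenes also held Rpl3l, at 1.12 and 2.33 FPKM. The ratio between genotypes had a rho of -0.25 with the number of pseudogenes, and the part of read sharing in either pattern was not tested.

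**Figure D3:**
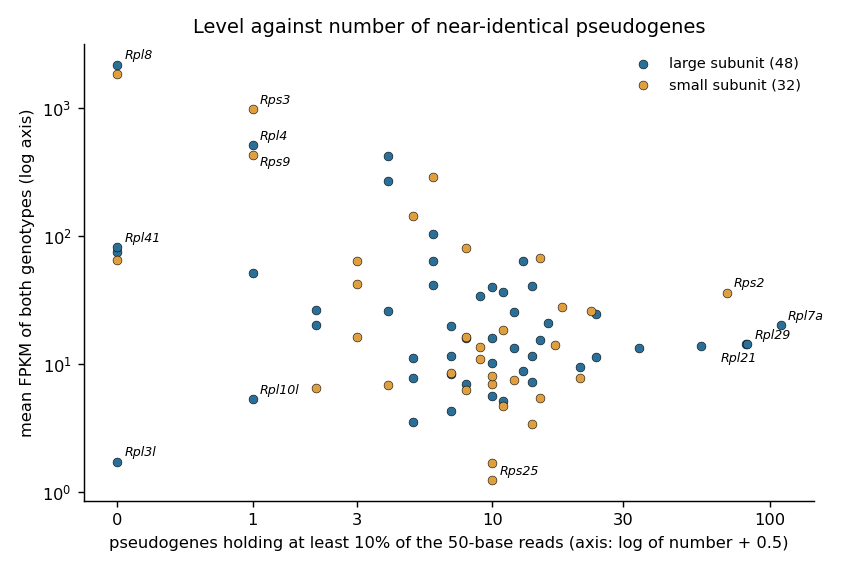
Mean FPKM of both genotypes on a log axis (y) against the number of pseudogenes that match at least 10% of a member's 50-base stretches (x, log of the number + 0.5), 1 point per member, large subunit blue and small subunit orange. Rpl8 has no such pseudogene and the highest level, and Rpl7a, with 109, has a mean near 20 FPKM.

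Some pseudogene rows had more FPKM than the row of the gene itself. Of 592 matched pseudogenes with a symbol in the table, 562 stayed under 1 FPKM and 11 had 10 FPKM or more in a genotype. Of those 11, 7 lay above their member in both genotypes. These were chosen after their values were seen. Rpl14-ps1 had 439 and 492 FPKM (status FAIL) where Rpl14 had 48.2 and 54.7 FPKM. Gm5963 had 298 and 326 FPKM where Rps21 had 58.8 and 68.8 FPKM, and Gm5805 had 277 and 286 FPKM where Rps14 had 42.8 and 41.4 FPKM.

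For Rps24, with 14.6 and 18 FPKM, the level was exceeded by both Gm8292 (128 and 97 FPKM) and Rps24-ps3 (83.7 and 80.4 FPKM), and these had ratios of opposite sign to that of Rps24 itself (-0.40 and -0.06 against 0.30). Rpl10a-ps1 had 85.5 and 99.0 FPKM, beside 53.1 and 74.5 FPKM for Rpl10a. The row of Rplp2-ps1, which was matched by its name alone, had 776 and 863 FPKM. This was 49.8-fold the level of Rplp2 in Hb9 control and 35.0-fold in A2 SMA MNs. That row spans chr12:76731601-76770489 (NCBI m37), far more than the 421 bases of the Rplp2 transcript. Whether its reads came from the pseudogene alone is unknown. The log2 ratio of the Rplp2-ps1 row, 0.15, was smaller than that of Rplp2 (0.66). The pseudogene rows matched by reads, which do not include Rplp2-ps1, were also added to their members. This left 50 of 80 members higher in A2 SMA MNs and a median of 0.12. At least 1.5-fold higher were 8 members, and 4 were that much lower.

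**Figure D4:**
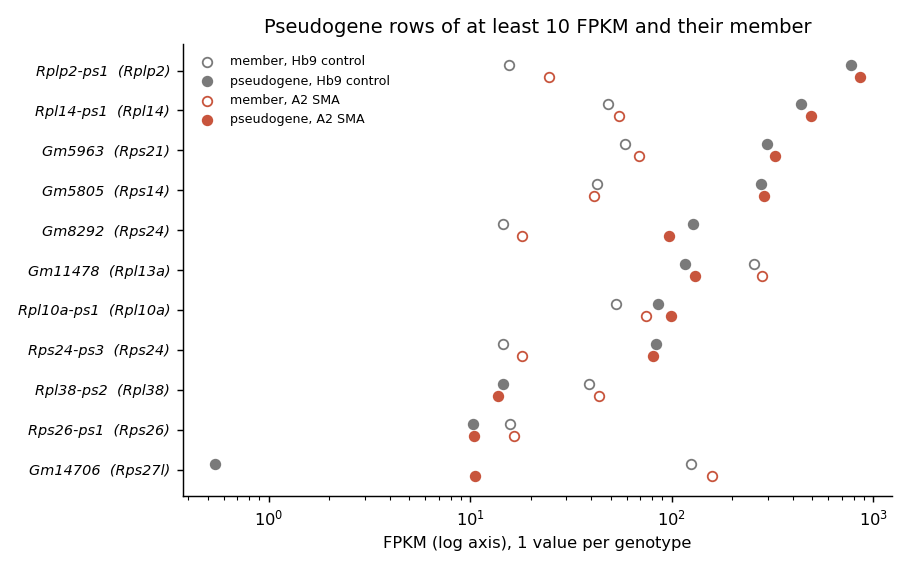
FPKM on a log axis of 10 of the 11 pseudogene rows of at least 10 FPKM in a genotype, matched by their reads, and of Rplp2-ps1, matched by name (filled). Each is drawn with its member (open, member in brackets), Hb9 control grey and A2 SMA red. Rplp2-ps1 and Rpl14-ps1 lie farthest to the right of their members, whereas Rpl13a, Rpl38, Rps26 and Rps27l lie above theirs.

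Other genes of the pathway were read in the same way. The 48 RNA polymerase I, nucleolar and assembly factors of ribosome biogenesis had a median log2 ratio of 0.57, and 46 were higher in A2 SMA MNs, 23 of them at least 1.5-fold, where 34.1% of all rows were higher and 12.7% at least 1.5-fold higher. The most abundant by mean level was Nop56, a core protein of box C/D snoRNPs (298 and 458 FPKM), in a row shared with 4 other symbols. Next were the polymerase subunit Polr1c (278 and 284 FPKM) and Dkc1, the pseudouridine synthase of box H/ACA snoRNPs (166 and 276 FPKM). The 76 mitochondrial ribosomal proteins had a median of -0.04, with 34 higher, 2 at least 1.5-fold higher and 6 at least 1.5-fold lower (all rows, 12.7% and 35.4%). Their most abundant members were Mrpl17 (197 and 245 FPKM), Mrpl15 (118 and 240 FPKM) and Mrpl33 (208 and 225 FPKM, in a row shared with 1 other symbol).

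The 16 other TOP mRNAs, chiefly elongation and initiation factors, had a median of 0.08, with 10 higher and 1, the nucleolar chaperone Npm1 (75.2 and 119 FPKM), at least 1.5-fold higher, again against 12.7% of all rows. Eef1a1, which brings aminoacyl-tRNA to the ribosome, had 2051 and 2108 FPKM in a row shared with 1 other symbol. Eef1b2 had 1650 and 2137 FPKM, and Eef2, the translocation factor, had 644 and 648 FPKM in a row with status FAIL. Among 14 Myc family and mTOR pathway genes the median was 0.04, with 7 higher. Eif4ebp1, a translation inhibitor under mTOR control, had 92.6 and 228 FPKM (1.30), and Mycl1 had 66.9 and 14.0 FPKM (-2.26). The other genes past neither limit included Mtor (46.8 and 32.3 FPKM), Myc (10.1 and 9.73 FPKM) and Larp1, which binds TOP mRNAs (41.6 and 46.8 FPKM). Of 6 non-coding snoRNA hosts 4 were higher, with a median of 0.12. Gas5 was the most abundant (310 and 447 FPKM), in a row shared with 9 other symbols. Of 6 cytosolic ribosomal proteins and paralogues outside the symbol rule 4 were higher, with a median of 0.07. Gnb2l1, the scaffold RACK1 of the small subunit, had 3231 and 2828 FPKM (log2 ratio -0.19) in a row shared with 3 other symbols. The paralogue Rpl22l1 had 6.35 and 4 FPKM (-0.67), 1.59-fold lower, and Rpl7l1 had 25.8 and 40.5 FPKM (0.65) in a row with status FAIL.

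**Figure D5:**
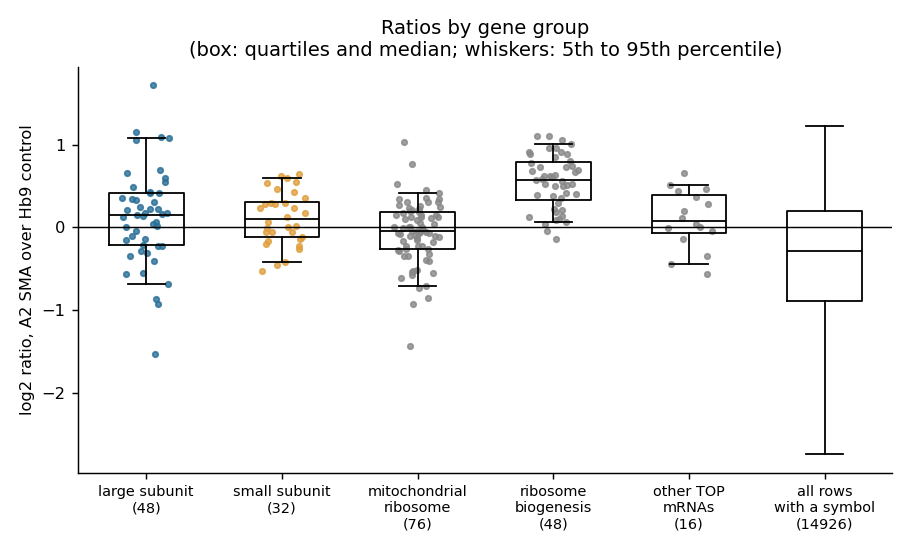
Log2 ratio of A2 SMA over Hb9 control FPKM for 6 groups of genes, with the number of genes in brackets, 1 point per gene except for all rows, boxes for quartiles and median, and whiskers for the 5th and 95th percentiles. Medians were 0.16 and 0.10 in the large and small subunit, -0.04 in the mitochondrial ribosome, 0.57 in ribosome biogenesis, 0.08 in other TOP mRNAs and -0.29 over all rows.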

How the data were processed

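RNA of 3 libraries per genotype was sequenced as 50-base single-end reads. Per the labels and the study's methods, the authors checked reads with FastQC 0.10.1, trimmed them with cutadapt, mapped them with TopHat2 2.04 to NCBI m37, assembled transcripts with Cufflinks and pooled the 3 samples per genotype in Cuffdiff. The deposited FPKM values are thus already normalised, with 1 value per genotype. The authors' fold change, test statistic, p, q and significance columns were not used. Counts and medians of the gene lists include rows with status FAIL, which made up 14.0% of all rows passing the filter. The number of reads behind a single value is unknown.

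Log2 ratios, medians and counts past 1.5-fold were computed with Python 3.11.15, pandas 2.3.3, numpy 2.4.6 and scipy 1.17.1, figures with matplotlib 3.10.9, and read sharing with bwa 0.7.19 on GENCODE M21. Summaries were tested on simulated data. Genes named are the extremes of ratio and level per subunit, all members past 1.5-fold, the role lists, X-linked members and the 3 most abundant genes of other lists. The rest were chosen after their values were seen. Members and lists were chosen with earlier results of these data known. Rpl13 and Rps4l were not analysed here. Some members are counted but not reported by name here.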

Additional observations from a re-analysis of the deposited data

How the results depend on the processing

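No paired analysis was possible because the table holds 1 pooled value per genotype, and leaving out each replicate could not be run for the same reason. Medians were taken as unmoved within 0.1 on the log2 scale, and counts and shares within 1.5-fold. By these limits 61 of 87 alternative values were unmoved, including all with the pseudogene rows added, an alternative chosen after seeing the data. Centring on the median row moved the median log2 ratio to 0.43 over all members, 0.45 in the large and 0.39 in the small subunit, 0.43 in shared and 0.45 in unshared rows. Upper quartile scaling gave 0.43, 0.44, 0.39, 0.42 and 0.45. Both shift all ratios by construction. With rows of 1 symbol only, the small subunit median turned from 0.10 to -0.02, over fewer members. Members at least 1.5-fold higher, 11 as reported, numbered 27 after centring, 26 after upper quartile scaling, 7 with a pseudocount of 1 FPKM, 7 with rows of 1 symbol and 5 at 2-fold. Those at least 1.5-fold lower, 4 as reported, numbered 2, 2, 1 and 1 after centring, upper quartile scaling, rows of 1 symbol and 2-fold. The members' share of summed FPKM was 0.179% and 0.194% in Hb9 control and A2 SMA over all rows, 1.33% and 1.70% over rows with a symbol, 1.34% and 1.73% over loci of at least 1 kb, and 1.07% and 1.39% over rows with 1 symbol in both sums. The number of reads behind a single value is unknown, and the part of read sharing in the low levels was not tested.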
